A study of Homo sapiens with 4 samples.

Results

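The enzymes that place and remove methyl groups on histone lysines were followed through the H3K27Ac peaks of the MOLM13 line, which was derived from human AML and carries MLL1-r. The genes are the protein-coding autosomal genes whose symbols start with KDM, KMT, SETD or PRDM, together with JMJD1C, JMJD6, NSD1, NSD2, NSD3, SETMAR, EHMT1 and EHMT2. KMT2A was left out. This gave 59 of 19122 autosomal protein-coding genes. Of the 59, 19 are demethylase genes with the JmjC relatives JMJD6 and KDM8, 25 are methyltransferase genes outside the PRDM family, and 15 are PRDM genes. The 25 count SETDB2-PHF11, a read-through annotation that starts with SETDB2 and shares its positions. The H3K27Ac mark was profiled by ChIPmentation, a form of ChIP-Seq in which adapters are inserted by Tn5 into chromatin still bound to the antibody. There was 1 library of MOLM13 cells labelled as having no treatment, called control here although the protocol text describes a DMSO arm, and 1 library of MOLM13 cells exposed for 16 h to 500 nM SNDX-50469, a Menin inhibitor (MI). Of each condition an input library was also listed, and these 2 inputs were not analysed here. MOLM13 is a single patient-derived line, and with 1 library per condition no difference below has a replicate check, so that values are given with no test.

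Lysine methylation of histones is written by enzymes with a SET or related domain and erased by flavin-dependent (KDM1) or JmjC-domain (most other KDM) demethylases. Methylation of H3K4 marks promoters and enhancers, that of H3K36 marks transcribed gene bodies, and that of H3K9, H3K27 and H4K20 is associated with repression. H3K27Ac is an acetyl mark of active promoters and enhancers, so the peaks below describe the regulatory chromatin of the genes that encode these enzymes, not the activity of the enzymes. In AML with MLL1-r, Menin binds the MLL1 fusion protein at its target genes, and several of these enzymes, among them KDM1A and JMJD1C, have been studied as dependencies of such cells.

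Coverage is the length in bp that lies under peaks of a list, counted from 5 kb before the gene to 5 kb after it. Of the length covered in control, the percent also covered after treatment is called the kept share. The 5′ window is the 5 kb on both sides of the outermost annotated 5′ end, and the rest is everything else in the gene body and flanks.

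The promoters of 6 genes that the values below turn on are printed first, as the 250 bases upstream of an annotated start, read 5′ to 3′ along the gene. They come from RefSeq, in GRCh38.p14, the build of hg38 to which the reads were mapped, and CG dinucleotides are in capitals. The first set shows the 3 annotated starts of JMJD1C, a KDM3-type H3K9 demethylase, at chr10:63521891-63522140, chr10:63465978-63466227 and chr10:63269244-63269493, all on the minus strand. Each of the 3 windows was covered over all 250 bases in control. After treatment the first and second, which hold 35 and 34 CG, were still covered over all 250 bases, and the third, which holds 5 CG, over 0 bases.
JMJD1C start 1: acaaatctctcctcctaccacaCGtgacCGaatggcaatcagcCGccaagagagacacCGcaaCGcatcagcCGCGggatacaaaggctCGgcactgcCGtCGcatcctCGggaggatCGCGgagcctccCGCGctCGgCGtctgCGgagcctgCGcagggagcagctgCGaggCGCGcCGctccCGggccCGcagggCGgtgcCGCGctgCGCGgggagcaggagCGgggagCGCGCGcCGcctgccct
JMJD1C start 2: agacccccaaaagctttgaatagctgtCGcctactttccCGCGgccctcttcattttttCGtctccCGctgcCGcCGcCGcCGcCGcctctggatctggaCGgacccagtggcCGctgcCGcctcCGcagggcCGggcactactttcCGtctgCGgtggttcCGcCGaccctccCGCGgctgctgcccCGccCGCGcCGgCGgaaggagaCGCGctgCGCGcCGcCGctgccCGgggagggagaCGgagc
JMJD1C start 3: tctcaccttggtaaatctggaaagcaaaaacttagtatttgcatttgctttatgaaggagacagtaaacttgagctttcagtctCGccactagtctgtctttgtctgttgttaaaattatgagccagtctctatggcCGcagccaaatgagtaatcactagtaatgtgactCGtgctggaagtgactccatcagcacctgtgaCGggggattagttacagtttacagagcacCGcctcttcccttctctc

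The second set pairs promoters that remained covered with promoters that did not. The windows of KMT2E (chr7:105013955-105014204, plus strand, 30 CG) and of the first start of PRDM10 (chr11:130002836-130003085, minus strand, 10 CG) lay under peaks over all 250 bases in both lists. The windows of KDM1A (chr1:23019218-23019467, plus strand, 23 CG), KMT2C (chr7:152436004-152436253, minus strand, 48 CG) and KDM8 (chr16:27203276-27203525, plus strand, 15 CG) were covered over all 250 bases in control and over 0 bases after treatment. KMT2C, with the most CG of the 8 windows printed, was among those that were lost, and PRDM10, with 10, was among those that were kept.
KMT2E start 1: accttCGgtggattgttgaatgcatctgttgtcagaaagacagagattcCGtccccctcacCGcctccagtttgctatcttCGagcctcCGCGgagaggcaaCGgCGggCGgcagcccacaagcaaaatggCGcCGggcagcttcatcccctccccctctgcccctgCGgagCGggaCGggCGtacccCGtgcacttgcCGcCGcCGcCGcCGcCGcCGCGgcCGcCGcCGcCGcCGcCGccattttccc
PRDM10 start 1: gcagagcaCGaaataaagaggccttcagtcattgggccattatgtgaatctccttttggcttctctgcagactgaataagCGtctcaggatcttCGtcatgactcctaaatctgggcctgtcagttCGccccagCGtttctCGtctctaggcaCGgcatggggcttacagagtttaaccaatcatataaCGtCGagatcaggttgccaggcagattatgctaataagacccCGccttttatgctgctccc
KDM1A start 1: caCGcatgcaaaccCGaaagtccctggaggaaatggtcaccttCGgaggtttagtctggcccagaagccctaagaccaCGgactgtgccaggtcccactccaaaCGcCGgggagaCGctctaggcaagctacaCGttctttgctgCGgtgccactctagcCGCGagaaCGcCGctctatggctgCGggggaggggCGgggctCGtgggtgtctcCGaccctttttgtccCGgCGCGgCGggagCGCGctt
KMT2C start 1: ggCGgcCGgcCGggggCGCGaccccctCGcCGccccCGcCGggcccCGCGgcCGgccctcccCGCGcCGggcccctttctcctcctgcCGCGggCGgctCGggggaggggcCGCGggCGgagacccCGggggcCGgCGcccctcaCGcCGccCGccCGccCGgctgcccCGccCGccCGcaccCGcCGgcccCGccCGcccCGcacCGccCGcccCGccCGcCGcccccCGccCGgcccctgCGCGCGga
KDM8 start 1: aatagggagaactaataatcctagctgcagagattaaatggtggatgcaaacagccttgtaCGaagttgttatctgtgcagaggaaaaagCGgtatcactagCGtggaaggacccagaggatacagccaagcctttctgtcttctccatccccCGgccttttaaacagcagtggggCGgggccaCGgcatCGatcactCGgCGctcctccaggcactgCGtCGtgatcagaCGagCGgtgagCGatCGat

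The whole lists differed in size, and this bears on every value below. The control list held 245875 peaks over 224 Mb and the SNDX-50469 list 54061 peaks over 29.4 Mb, and 9.71% of the length covered in control was covered after treatment. The lists end at different strengths, with a smallest −log10 p of 2.68 in control and 3.93 in the SNDX-50469 list. Read totals are not part of the lists, so the depth is unknown, and its part in the lower coverage was not tested. Chromosome 8 held 10.5% of the control peaks and 41.9% of the SNDX-50469 peaks, which touches NSD3 and PRDM14. In a bulk library, fewer cells with the mark and less of the mark per cell cannot be told apart. The myeloid identity of the cells was read from coverage within 5 kb of the 5′ end of marker genes. The 9 myeloid markers SPI1, CEBPA, CEBPE, MPO, LYZ, CD33, FLT3, CSF1R and ITGAM had between 5966 bp (CD33) and 10001 bp (CEBPA, MPO and FLT3) in control, and between 0 bp (CD33, CSF1R and ITGAM) and 8951 bp (MPO) after treatment. Of the markers of other lineages reported here, HBB, EPCAM and ALB had 0 bp in both lists, while CD3E went from 1065 bp to 0 bp.

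Coverage of the enzyme genes was wide in control and narrow after treatment. In control 54 of the 59 genes had coverage, where 79.6% of all autosomal protein-coding genes had. After treatment 48 of the 59 had coverage, where 10281 of all 19122 genes had. The covered length was lower after treatment in 53 of the 54, where it was lower in 98.1% of all genes with control coverage, so the direction at these genes is that of the whole list. The median covered length went from 12.8 kb to 1.30 kb, and over all genes from 3.88 kb to 0.128 kb. The median kept share was 11.3%, with quartiles of 4.58% and 18.7%, against 2.54% over all genes. None of the control length was kept at 9 of the 54 genes, where this held for 44.3% of all genes with control coverage. At least 20% was kept at 13 of the 54, where 19.4% of all genes reached this.

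Part of the distance to the median of all genes goes with the covered length in control. At genes with under 5 kb in control the median kept share was 11.5% for the 12 enzyme genes and 0% for all genes. Between 5 and 20 kb it was 10.2% for 30 enzyme genes and 8.42% for all genes. Between 20 and 50 kb it was 13.6% for 8 enzyme genes and 6.72% for all genes, and from 50 kb up 9.75% for 4 enzyme genes and 7.61% for all genes. Summed over positions, 1073 kb in control and 142 kb after treatment gave a kept share of 11.8%, and the same sum over all genes gave 10.6%. Of the 1239 control peaks at these genes, 110 shared at least 1 bp with an SNDX-50469 peak, a share of 8.88% with a Wilson 95% interval from 7.42% to 10.6%, which covers counting error only. The same share over all control peaks was not computed.

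**Figure D1:**
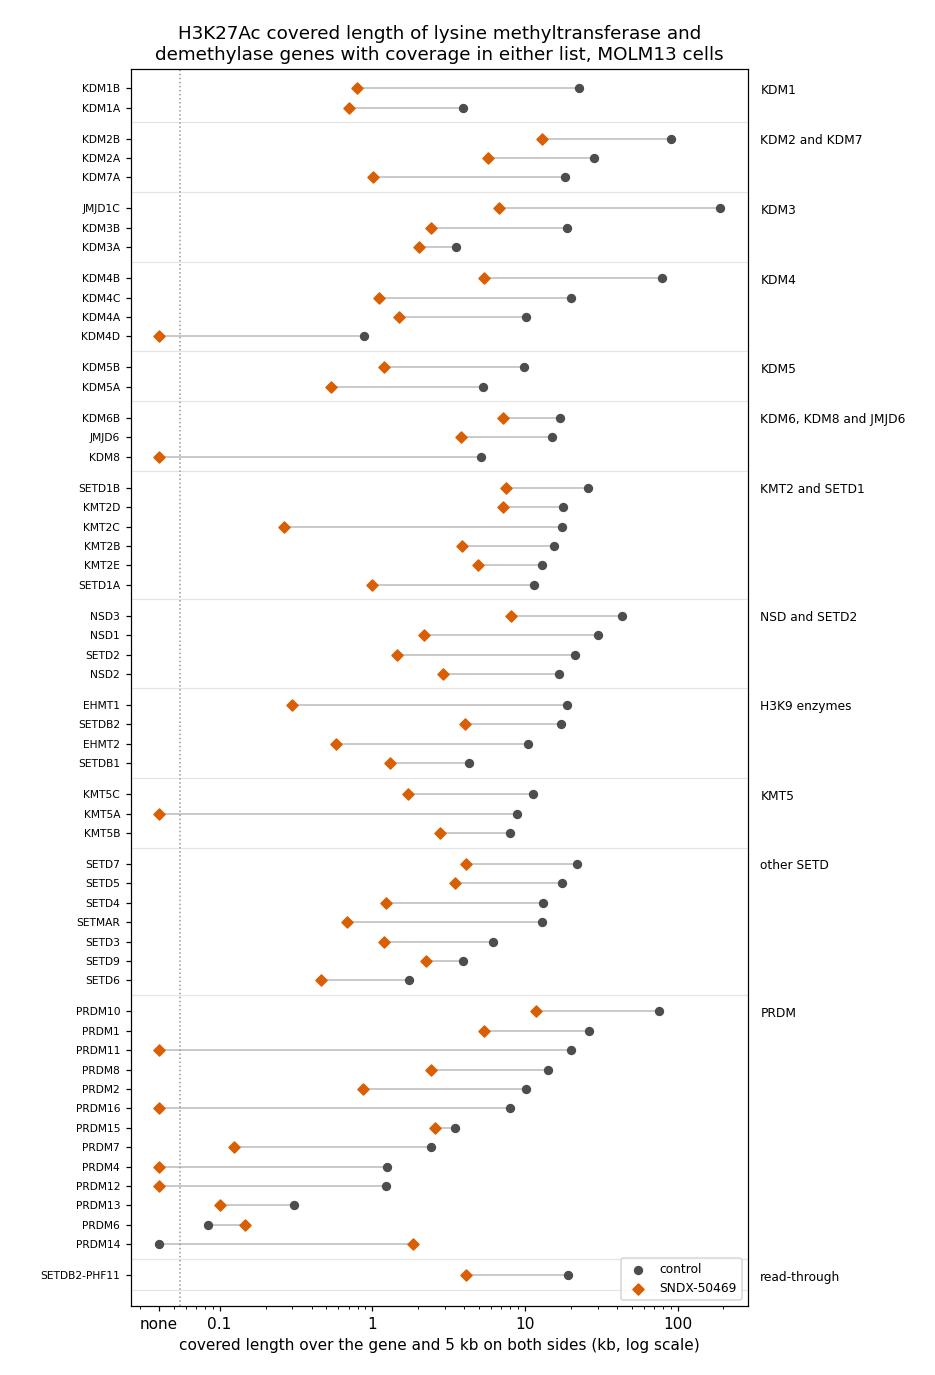
H3K27Ac covered length over each gene and 5 kb on both sides (x axis, kb, log scale, with a list that has none at the left of the dotted line) for the enzyme genes with coverage in either list (y axis), grouped by subfamily, with 1 circle for the control list and 1 diamond for the SNDX-50469 list. The diamond lies left of the circle at 53 genes, and JMJD1C has the longest control length, 190 kb.

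The trimmed control list gives another reading. When the control list was cut from its weakest peaks until it covered the same 29.4 Mb as the SNDX-50469 list, 3632 control peaks were left, with a smallest −log10 p of 10.0. This list still covered 28 of the enzyme genes, and the length was shorter after treatment at 20 of the 28 and longer at 8. Genes are among the 28 only through a strong control peak, and the SNDX-50469 list was not cut in the same way. Both readings thus use the same control peaks, and this one is not separate support for the first. Of all genes covered in the trimmed list, 80.0% were shorter. The 8 that were longer were KDM2A, JMJD6, KMT2B, KMT2D, NSD1, NSD3, KMT5B and PRDM15. A further 21 enzyme genes had 0 bp in the trimmed list and some coverage after treatment, so they could only be longer. Summed over the enzyme genes, the trimmed control length was 211 kb and the treated length 146 kb, a ratio of 69.2%, against 93.7% over all genes. Without chromosome 8 these ratios were 66.0% and 81.4%. The sums add per-gene lengths, so a position shared by genes, as in the read-through, counts for each. The genes that were shorter by both readings were KDM2B, JMJD1C, KDM3A, KDM3B, KDM5B, KDM6B, KDM8, KMT2E, SETD1A, SETD1B, NSD2, SETD2, SETDB2 with its read-through, KMT5C, SETD5, SETD7, SETD9, PRDM8 and PRDM10. JMJD1C had the largest length in the trimmed list, 36.9 kb against 6.79 kb after treatment, followed by PRDM10, 30.9 kb against 11.9 kb, and KDM2B, 24.4 kb against 12.9 kb.

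What remained lay near starts. In control 30.4% of the length covered at the enzyme genes, counted without the read-through, lay within 5 kb of an annotated start of the gene itself, 5.55% near the start of another gene only, and 64.0% elsewhere. After treatment these shares were 64.5%, 6.17% and 29.3%. The kept share was 26.5% near the genes' own starts, 12.8% near other starts and 4.67% elsewhere. For genes with no listed start, SETD1B among them, only the outermost 5′ end was counted as a start. With the outermost 5′ end alone, the kept share was 28.0% in the 5′ window and 7.02% over the rest, and over all genes 19.6% and 7.15%. The values of the enzyme genes and of all genes thus lay apart near the 5′ end and close together over the rest.

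In the first kb downstream of the 5′ end, 68.8% of positions at the enzyme genes were under a control peak and 36.2% under an SNDX-50469 peak, with 52.5% of the control length kept. Over all genes these values were 47.0%, 17.5% and 36.4%. In the bin that starts 5 kb downstream, 23.3% of positions at the enzyme genes were covered in control and 3.54% after treatment, and over all genes 17.5% and 2.14%.

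**Figure D2:**
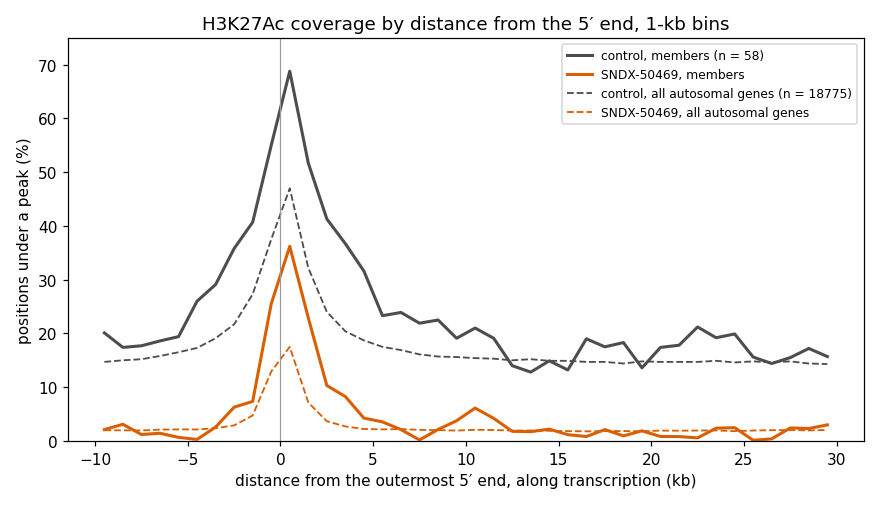
Percent of positions under an H3K27Ac peak (y axis) in 1-kb bins by distance from the outermost 5′ end along transcription (x axis, kb), for 58 enzyme genes without the read-through (solid lines) and 18775 autosomal genes with a strand (dashed lines), in the control list and the SNDX-50469 list. All 4 lines peak in the first kb downstream, at 68.8% and 36.2% for the enzyme genes and at 47.0% and 17.5% for all genes.

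The 5′ window was covered in control at 51 of the 59 genes, where 68.7% of all genes with a strand had it covered. It was covered in both lists at 40 of the 59, where 37.1% of all genes had it. The count was 22 when positions of neighbouring genes and their flanks were left out, 23 against the trimmed control list, and 11 when only peaks whose −log10 q reached 5 were used. The same counts were not made over all genes, so these settings have no share to set beside them. The methyltransferase genes outside the PRDM family had it in both lists at 24 of 25, KMT5A being the exception, while the demethylase genes had it at 12 of 17 covered in control and the PRDM genes at 4 of 9. Of all genes covered there in control, 54.0% were covered there after treatment. Genes with more control coverage in the window had it in both lists more often. With at least 5 kb there in control, it was covered in both lists at 23 of 26 enzyme genes (88.5%) and at 81.9% of all genes, with 2 to 5 kb at 14 of 16 (87.5%) and 59.2%, and with under 2 kb at 3 of 9 (33.3%) and 20.0%. The 11 genes that lost the window were KDM4A, KDM4C, KDM4D, KDM7A, KDM8, KMT5A, PRDM2, PRDM4, PRDM7, PRDM11 and PRDM12. This window is that of the outermost 5′ end only. KDM4C and PRDM2 have annotated starts 37.1 kb and 49.2 kb downstream of it, where the 250 bases upstream were covered in both lists, at KDM4C in part. PRDM13 and PRDM14 had coverage there in the SNDX-50469 list only. The kept share was higher near the 5′ end than over the rest at 34 of the 48 genes covered in both places in control, where 48.3% of all such genes had this, and lower at 9, where 18.8% had this. It was equal at the other 5. Of all 11082 such genes, 5352 were higher, 2080 lower and the rest equal. Equal shares were thus more frequent over all genes, which bears on the distance to the 48.3%.

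**Figure D3:**
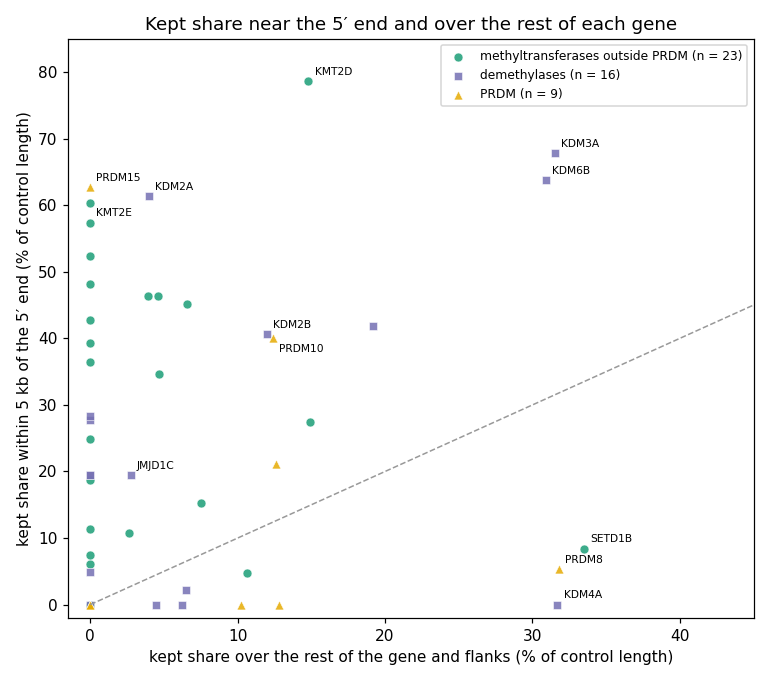
Kept share within 5 kb of the 5′ end (y axis, % of the control length there) against the kept share over the rest of the gene and flanks (x axis, %), 1 point per gene, for the 48 genes covered in both places in control. Of these, 34 lie above the dashed line of equal shares and 9 below it, among them SETD1B, PRDM8 and KDM4A.

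Strong peaks gave a shorter list of genes. Peaks whose −log10 q reached 5 lay over 40 of the 59 genes in control, where 38.1% of all genes had one, and over 12 of the 59 after treatment, where 5.38% had one. The 12 were KDM2A, KDM3A, KDM3B, KMT2D, KMT2E, KMT5B, NSD2, NSD3, PRDM10, SETD1B, SETDB2 and its read-through. Ranked within the SNDX-50469 list by −log10 p, the peaks of SETD1B, PRDM10 and KMT2E stood at 54, 64 and 68 of 54061, with 8.90-fold, 8.81-fold and 8.52-fold over the background of their own library.

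The H3K4 methyltransferases of the KMT2 and SETD1 family, with KMT2E, whose SET domain has no established histone activity, kept 22.6% of their summed control length. All 6 were covered near the 5′ end in both lists. KMT2D, which monomethylates H3K4 at enhancers, had 17902 bp in control and 7218 bp after treatment, and a 5544-bp peak over its 5′ end kept 78.6% of the window, the highest such share among the 59. KMT2E had 12847 bp in control and 4935 bp after treatment, of which 4579 bp formed 1 peak over its 5′ end and printed promoter. SETD1B, a catalytic subunit of the SET1 complexes that trimethylate H3K4, had 25772 bp in control and 7500 bp after treatment, a kept share of 26.4%. Most of its treated coverage was a 6128-bp peak at chr12:121799285-121805412 that began 9.13 kb downstream of the outermost 5′ end. The window around that end kept 8.42%. No annotated start of SETD1B was listed, so whether this peak lies over a start could not be read.

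KMT2C, the paralogue of KMT2D, stood at the other end of the family. It had 17555 bp in 31 control peaks and 265 bp in 1 peak after treatment, a kept share of 1.51%, and that peak began 111 bp from the 5′ end, outside the printed window. SETD1A, the paralogue of SETD1B, went from 11402 bp to 990 bp, all of it near the 5′ end. KMT2B, which like the MLL1 protein binds Menin, went from 15406 bp to 3843 bp, a kept share of 21.3%. Of its treated length 2443 bp lay near its own 5′ end and 867 bp near starts of the neighbouring genes only. Over the gene and flanks, paralogues in this family thus differed widely, with 38.3% kept at KMT2D and 1.51% at KMT2C, and 26.4% at SETD1B and 8.68% at SETD1A. In the 5′ window KMT2D kept 78.6% and KMT2C 24.9%, while the order was reversed at SETD1B with 8.42% and SETD1A with 18.7%. Of the treated length at KMT2D, 1674 bp lay near the starts of PRKAG1 and RHEBL1 only.

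The H3K36 methyltransferases NSD1, NSD2, NSD3 and SETD2 kept 10.8% of their summed length. In the 5′ windows they kept 47.2% and over the rest 3.84%. NSD2, which dimethylates H3K36, went from 16792 bp to 2898 bp, and all of the treated length lay in the 5′ window, where 57.3% was kept. SETD2, which adds the last methyl group of H3K36, went from 21447 bp in 41 peaks to 1450 bp in 1 peak, also in the 5′ window. NSD1 went from 30336 bp to 2181 bp, of which 822 bp lay near its own 5′ end and 1124 bp near the starts of PRELID1 and RAB24 only. NSD3 had 43508 bp in 72 control peaks and 8158 bp in 20 peaks after treatment, a kept share of 13.9%. NSD3 lies on chromosome 8, whose share of peaks is raised in the SNDX-50469 list, and the part this has in its 20 treated peaks was not tested.

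The H3K9 methyltransferases kept 10.5%, with 22.4% in the 5′ windows. SETDB2 kept 20.8%, from 17366 bp to 4021 bp, with a 2961-bp peak over its 5′ end that ranked 370 of the SNDX-50469 list. The read-through SETDB2-PHF11 shares this peak and went from 19200 bp to 4141 bp. SETDB1, which trimethylates H3K9 and acts with KRAB zinc finger proteins, went from 4305 bp to 1302 bp, a kept share of 20.1%. EHMT1 and EHMT2, which form the dimer that dimethylates H3K9, were lower in kept share, EHMT1 with 18754 bp and 298 bp (1.59%) and EHMT2 with 10432 bp and 577 bp (5.53%). The treated coverage of both lay in the 5′ window.

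Among the H4K20 methyltransferases, KMT5B and KMT5C, which add further methyl groups to monomethylated H4K20, were covered in both lists, and KMT5A, which makes that monomethyl mark, was not. KMT5A had 8892 bp in 16 control peaks and 0 bp after treatment. Its best control peak ranked 12947 of 245875. KMT5B went from 7940 bp to 2759 bp, with 39.3% of its 5′ window kept and a treated peak over its 5′ end that ranked 224. KMT5C went from 11281 bp to 1707 bp, a kept share of 12.9%, with 505 bp of the treated length near the start of COX6B2 only.

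The other SET-domain genes were all covered near the 5′ end in both lists, and they kept 31.4% of the 5′ windows and 1.65% of the rest. SETD7, which monomethylates H3K4 and other proteins, went from 21968 bp to 4090 bp, all of it in the 5′ window, where 52.4% was kept. SETD9 went from 3910 bp to 2249 bp, a single peak over the 5′ end in each list, and its 57.5% was the highest kept share of the 59 genes. SETD5 went from 17611 bp to 3470 bp (17.3%), SETD6, a methyltransferase of the NF-kB subunit RelA, from 1752 bp to 459 bp (26.2%), and SETD4 from 13088 bp to 1237 bp (8.41%). SETD3, which methylates actin, went from 6212 bp to 1185 bp (8.84%). SETMAR, a fusion of a SET domain with a transposase, went from 13007 bp to 687 bp (5.28%) although 54.4% of its region was covered in control. A region covered by at least 50% in control was found at 6 of the 59 genes, PRDM10, JMJD6, KMT5C, KDM6B, SETMAR and JMJD1C, where 11.5% of all genes had this.

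Among the demethylases, the KDM3 family held the longest domain. JMJD1C (chr10:63167225-63521890, minus strand) had 129 control peaks over 189699 bp and 9 SNDX-50469 peaks over 6786 bp, a kept share of 3.58%. It alone held 17.4% of the summed control length of the 59 genes, and without it the pooled kept share of the others was 13.5% in place of 11.8%. Most of its treated length stood near its starts. Of the 6786 bp, 5667 bp lay within 5 kb of 1 of its 3 starts, with 1 peak across the outermost 5′ end, 1 across the second start 55.9 kb downstream, and 1 directly downstream of the third start at 253 kb. The other 1119 bp lay further from any start. Within 1 kb of the 3 starts the coverage was 2001, 2001 and 1966 bp in control and 1441, 1547 and 994 bp after treatment. A control peak of 24830 bp between 77.6 and 102 kb from the outermost 5′ end, the widest at the gene, shared 628 bp with an SNDX-50469 peak. The control peak of 12907 bp between 19.5 and 32.4 kb shared 0 bp.

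KDM3A and KDM3B, the other H3K9 demethylases of the family, had shorter domains. KDM3A had 3560 bp in control and 2037 bp after treatment, with 56.4% kept in 1 peak that began 3315 bp from the outermost 5′ end. Its listed starts, 4.33 and 4.42 kb downstream of that end, lay under this peak, and their 250-base windows were fully covered in both lists. KDM3B went from 18963 bp to 2417 bp (10.4%), with 2118 bp of the treated length in the 5′ window. The 250-base window of KDM3B was covered in the SNDX-50469 list only, over 123 bases, as the control peak began 18 bp from the 5′ end.

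KDM1A, the H3K4 demethylase LSD1 (chr1:23019468-23083689, plus strand), had 11 control peaks over 3920 bp and 1 SNDX-50469 peak of 701 bp. The treated peak began 205 bp downstream of the 5′ end and lay whole within the control peak there, so that 17.9% of the gene's length and 27.7% of its 5′ window were kept. The printed promoter of KDM1A thus lay under the control peak, and the treated peak lay downstream of it. The paralogue KDM1B went from 22525 bp in 33 peaks to 793 bp in 3 peaks, a kept share of 1.27%, the lowest above 0 among the 59.

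KDM2A and KDM2B, H3K36 demethylases with a CXXC domain that binds unmethylated CG, were covered near their starts in both lists. KDM2A went from 28226 bp to 5758 bp (18.2%), and all of the treated length lay near its 2 starts, 4831 bp in 1 peak over the outermost 5′ end, where 61.4% of the window was kept. Its promoter window at that end was covered in the SNDX-50469 list only. This window lay between control peaks that ended 501 bp before and began 22 bp after the 5′ end. KDM2B went from 90573 bp to 12871 bp (13.3%), the longest treated length of the 59 genes. Of this 3477 bp lay near its starts and 9394 bp elsewhere, including a 4568-bp peak between 155 and 160 kb from the 5′ end, toward the 3′ end of the gene. KDM7A, a demethylase of H3K9 and H3K27, went from 18306 bp to 1007 bp (5.50%), and the treated peak began 11027 bp from its 5′ end.

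The KDM4 genes, of a family of H3K9 demethylases, kept 1.01% of their 5′ windows and 7.30% of the rest. In this subfamily 3 genes, KDM4A, KDM4B and KDM4C, were covered in both places. At each the kept share was lower near the outermost 5′ end than over the rest. At KDM4C that end held 364 bp in control and lies 37.1 kb from its only listed start. KDM4B went from 78938 bp to 5394 bp (6.16%). In its 5′ window 129 of 5963 bp were left, while most of its 11 treated peaks lay between 149 and 174 kb from the 5′ end, in the last part of the gene, where a control peak of 20010 bp reached from 156 to 176 kb. These treated peaks were weak, and the best ranked 18428 of 54061. KDM4A lost the 4511-bp control peak over its 5′ end, and the 1492 bp it had after treatment, of 10227 bp in control, lay near the start of ST3GAL3 at its far end. KDM4C went from 19930 bp to 1099 bp (4.39%), of which 875 bp began 36.1 kb from the outermost 5′ end. These 875 bp lay within 1 kb of its only listed start, where 2001 bp were covered in control. KDM4D went from 877 bp to 0 bp, and KDM4E and KDM4F had 0 bp in both lists. KDM4D, KDM4E and KDM4F are close copies of each other on chromosome 11, and how reads that fit several places were treated is not given in the sources used here.

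The H3K4 demethylases KDM5A and KDM5B had 5321 and 9887 bp in control and 534 and 1198 bp after treatment, with kept shares of 10.0% and 12.1%, and kept 0% outside the 5′ windows. KDM6B, an H3K27 demethylase, went from 16895 bp to 7238 bp. Its kept share was 41.2%, and 63.8% of its 5′ window was kept. The SNDX-50469 peaks of KDM6B did not lie at its outermost start, where 0 bp within 1 kb were covered after treatment, but from 1.13 kb downstream onward, among them 1 that ended at 5.60 kb, next to its second start at 5.70 kb. JMJD6, a JmjC-domain hydroxylase, went from 15018 bp to 3836 bp (25.5%), of which 1757 bp lay near its own 5′ end and 824 bp near the starts of METTL23 and MXRA7 only. KDM8, another JmjC-domain protein, had 5180 bp in 14 control peaks, with a 1951-bp peak over its 5′ end that ranked 3557, and 0 bp after treatment.

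**Figure D4:**
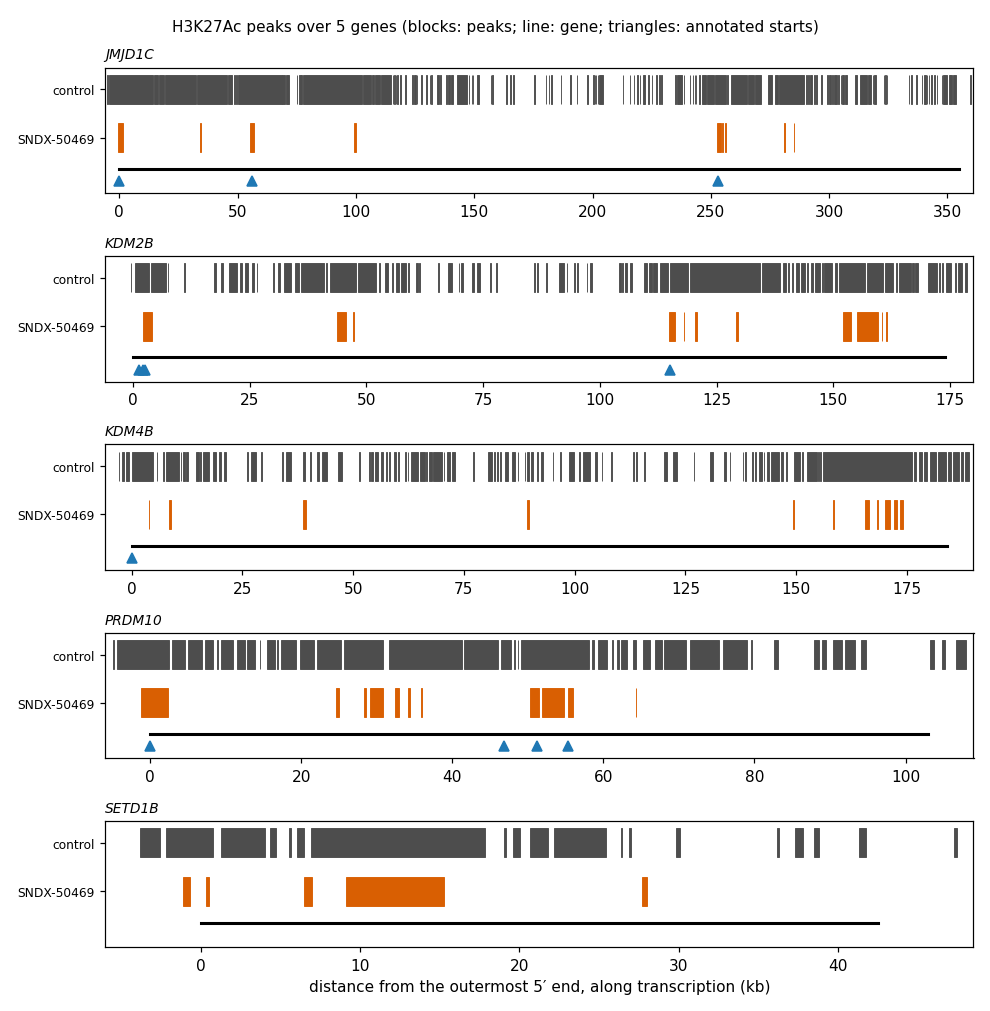
H3K27Ac peaks (blocks) of the control and SNDX-50469 lists over JMJD1C, KDM2B, KDM4B, PRDM10 and SETD1B, by distance from the outermost 5′ end (x axis, kb), with the gene as a line and annotated starts as triangles (none were in the table used for SETD1B). The widest SNDX-50469 peaks of JMJD1C stand at its 3 starts, those of KDM4B mostly between 149 and 174 kb, and the widest of SETD1B between 9.13 and 15.3 kb.

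The 15 PRDM genes, zinc finger proteins with a PR domain related to SET, were divided. Of these 12 had control coverage, their median kept share was 2.57%, and 6 of the 12 kept none. Both values are close to those of all genes with control coverage, 2.54% and 44.3%. PRDM10 had 76050 bp in control, 67.2% of its region, and 11890 bp after treatment, a kept share of 15.6%. A 3575-bp treated peak with 8.81-fold over background lay over its outermost 5′ end, and of the treated length 8220 bp lay near 1 of its 4 starts. PRDM1, which encodes the repressor BLIMP1, went from 26496 bp to 5382 bp (13.4%), and PRDM15 from 3475 bp to 2571 bp (55.4%). PRDM8 went from 14162 bp to 2436 bp (15.7%), where 1757 bp lay 16.8 kb from the outermost 5′ end and the window around it kept 5.36%. PRDM2 went from 10234 bp to 863 bp (8.43%) and PRDM7 from 2413 bp to 124 bp (5.14%), both with 0 bp left in the 5′ window. Of the 863 bp at PRDM2, 737 bp lay near its annotated start 49.2 kb downstream.

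The other PRDM genes had little coverage or lost it. PRDM11 went from 19921 bp, the longest control length among genes that kept none, to 0 bp. PRDM16, a regulator of haematopoietic stem cells and brown fat, went from 7947 bp, none of it in the 5′ window, to 0 bp, PRDM4 from 1247 bp to 0 bp and PRDM12 from 1227 bp to 0 bp. PRDM13 had 308 bp in control and 100 bp after treatment at other positions, and PRDM9 had 0 bp in both lists. PRDM9, the meiotic recombination factor, and PRDM7 are near-identical copies, so that reads of either are uncertain. A longer length after treatment was seen at 2 of the 59 genes, where 3.44% of all genes had this. PRDM6 had 84 bp in control and 146 bp after treatment, both in 1 peak of low rank and at different positions. PRDM14, a germline and pluripotency factor, had 0 bp in control and 5 peaks over 1839 bp after treatment. PRDM14 lies on chromosome 8, its best treated peak ranked 20537, and the part of the raised peak share of that chromosome was not tested.

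The long domains carried much of the sum. The 4 genes with at least 50 kb in control, JMJD1C, KDM2B, KDM4B and PRDM10, held 435 kb, or 39.9% of the summed control length. Their kept shares were 3.58%, 13.3%, 6.16% and 15.6%, and what was left lay in different places, near starts at JMJD1C and PRDM10, mostly away from them at KDM2B, and toward the 3′ end at KDM4B.

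Promoter sequences were compared over the 80 windows of 250 bases that RefSeq gives for 51 of the 59 genes. Of these windows 34 (42.5%) were covered in both lists, where 20.2% of 21155 windows of all genes were. A further 18 of the 80 were covered in control only and 24 in neither list. The SNDX-50469 list alone covered 4, at KDM2A, KDM2B, KDM3B and SETD3. Of the 21155 windows of all genes, 25.9% were covered in control only, 52.5% in neither list and 1.46% in the SNDX-50469 list only. These classes describe the 250 bases only, and an uncovered window can lie beside control peaks. Within 1 kb of the start, the uncovered windows of KDM1B and KDM5B had 1598 and 1623 bp in control. Those of PRDM12 and PRDM13 had 0 bp there. KDM2A had 1479 bp. The median number of CG was 23.5 in the windows covered in both lists and 20.0 in those covered in control only, with 20.0 in those covered in neither list. Over all genes these medians were 22.0, 19.0 and 11.0. The GC box GGGCGG, searched on both strands, was in 26 of the 34 enzyme windows covered in both lists in 9 of the 18 covered in control only and in 15 of the 24 covered in neither list. Over all genes it was in 66.2%, 59.6% and 46.0%, with 54.0% of all windows. The ETS motif CCGGAAG was in 8.82%, 11.1% and 8.33% of these enzyme windows and in 18.4%, 14.2% and 5.99% over all genes, with 10.7% of all windows. The E-box CACGTG was in 17.6%, 0% and 20.8% of the enzyme windows and in 9.89%, 7.82% and 6.13% over all genes, with 7.34% of all windows. Windows of 1 gene can overlap, and the 34 windows come from 26 genes with SETDB2 and its read-through counted both. Counting only windows that share no base, the GC box was in 23 of 30, 9 of 18 and 14 of 22, and the E-box in 6, 0 and 4 of them. The numbers of windows are small, none of the 3 motifs contains another, and a match of letters is not a bound site.

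Related genes outside the rule were read the same way. Of 24 other histone methyltransferase and demethylase genes, 22 had control coverage, all 22 were lower after treatment, 8 kept none and the median kept share was 6.68%, beside 98.1% lower, 44.3% that kept none and a median of 2.54% over all genes. DOT1L, the H3K79 methyltransferase that acts with MLL1 fusion proteins, went from 54.7 kb to 11.1 kb (18.5%), and EZH2, the H3K27 methyltransferase, from 6780 bp to 2988 bp (41.9%). SMYD3 went from 139 kb to 1.47 kb (0.738%). Of 20 genes for subunits of complexes of these enzymes, all had control coverage and were lower, 3 kept none and the median was 13.4%. The kept shares of the partners of KDM1A were spread from 0% at GFI1B, 5.41% at HDAC1, 10.4% at PHF21A, 15.5% at HMG20B and 16.1% at RCOR1 to 40.4% at HDAC2 and 46.0% at GFI1. Those of subunits that act with the KMT2 and SETD1 enzymes were spread as widely. They were 0% at MEN1, which encodes Menin, 2.39% at CXXC1, 9.89% at PAGR1, 10.7% at NCOA6, 11.4% at WDR5, 28.7% at PSIP1, 33.9% at RBBP5, 39.6% at ASH2L, which lies on chromosome 8, 43.6% at DPY30 and 44.5% at PAXIP1. None of the length kept at DPY30 lay in its 5′ window, which went from 1913 bp to 0 bp.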

How the data were processed

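H3K27Ac ChIPmentation was carried out in MOLM13 cells, with 1 library per condition. The study's supplementary methods name TopHat2 and UCSC hg38, whereas the submitters' processing notes list Trim Galore 0.6.5, Bowtie2 2.3.4.2, Picard 2.9.0, MACS2 2.1.2 and GRCh38 with no role or order. The use of an input in peak calling is not given in the sources used here. A broadPeak list for each library was deposited by the authors. For each peak the deposited lists hold a fold ratio over background, a −log10 p, a −log10 q and a score, which is 10 times the −log10 q and was not used on its own. These values are relative to the background of their own library, so positions were compared between lists, and fold and rank were read within a list. The lists hold no read totals, so depth and the precision it gives are unknown.

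Computations were made in Python (3.11.15) using pandas (2.3.3), numpy (2.4.6), scipy (1.17.1) and, for figures, matplotlib (3.10.9). Gene positions were those of RefSeq in GRCh38.p14. Strand came from the RefSeq promoter table for 51 of the 59 genes and by symbol from GENCODE for the other 8, with no coordinate taken from the latter. Pooled values count each position once. The exceptions are the trimmed-list sums and the shares of summed control length, which add per-gene lengths. Coverage and kept shares were tested on simulated data. Wilson 95% intervals treat peaks as independent and cover counting error only.

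The members and the gene lists were chosen with earlier results of these data known. Genes named in detail were those the study names, the longest of each subfamily, and those with the highest or lowest kept share, the longest treated length, or coverage absent in control or longer after treatment. A member and a lineage marker are in the counts but not reported here by name. The other members are given for completeness, and their values were seen when examples were picked. The alternatives were other flanks and windows, stronger peaks, an equal covered length, no chromosome 8, no positions of neighbouring genes, no PRDM genes, and a 50% overlap for kept peaks. Leaving out JMJD1C or the read-through was added after seeing the data.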

Additional observations from a re-analysis of the deposited data

How the results depend on the processing

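Of 63 alternatives computed over the 7 summary values, 42 stayed within 1.5 times a count or within the 95% interval of a share, and 21 moved. For the kept shares of length, the interval took the share as if it were a count of control peaks. For the median it was a binomial interval over the genes, which are not replicates. These intervals served as a yardstick only. With the control list trimmed to the covered length of the SNDX-50469 list, 20 of 28 genes were lower in place of 53 of 54, 2 of 28 kept none in place of 9 of 54, the median kept share was 54.3% in place of 11.3%, the kept share was 55.1% in place of 28.0% near the 5′ end and 25.4% in place of 7.02% over the rest, 23 genes were covered near the 5′ end in both lists in place of 40, and 97.2% of control peaks were kept in place of 8.88%. By construction that list holds only the strongest control peaks. With each list limited to peaks whose −log10 q reached 5, 28 of 40 genes kept none, the median kept share was 0%, the rest kept 4.07%, 11 genes were covered near the 5′ end in both lists and 20.3% of control peaks were kept. Without positions of neighbouring genes and their flanks these values were 18 of 50 genes that kept none, a median of 6.21%, 22 genes covered near the 5′ end in both lists and 7.16% of control peaks. A 1 kb window gave 48.5% kept near the 5′ end and 9.12% over the rest, and a 50 kb flank 10.0% over the rest. Without the PRDM genes 3 of 42 kept none, and with at least 50% of a control peak covered 2.82% of peaks were kept. Except where its construction is given, the cause was not tested. Apart from the genes shorter than in the trimmed list, these values were computed for the enzyme genes only. The depth of both libraries is unknown, so a lost peak cannot be told from one that was not detectable. No paired analysis was possible because the 2 conditions have 1 library each.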
